A study of Mus musculus with 12 samples.

Results

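Collagens and laminins are the structural proteins of the extracellular matrix, and their genes were followed here in mouse hippocampus after early ethanol and later enriched housing. Members were all rows of the deposited table whose mouse symbol is a collagen alpha chain (Col, a number, a, a number) or a laminin alpha, beta or gamma chain (Lama, Lamb or Lamc and a number). The rule gave 55 of 36119 genes, with 1 row each, and used no measured value. Of these, 38 had a mean of at least 1 deposited TPM (a share of all transcripts, scaled for transcript length) over the 12 libraries and were tested, beside 14947 genes of the whole table that met the same limit. The limit fell between Col4a3, with a mean of 1.0, and Col27a1, with 0.959. The other 17 members were not tested: Col27a1, Col13a1, Col4a6, Col22a1, Col14a1, Col2a1, Col6a5, Col17a1, Col6a4, Col7a1, Col9a1, Col5a3, Col28a1, Col10a1, Col4a4, Col24a1 and Col6a6.

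The 12 libraries came from the hippocampus of C57BL/6 mice at postnatal day 70, with 3 libraries in each of 4 groups. Ethanol mice were injected under the skin with 2.5 g/kg ethanol in saline, with 2 injections per day, 2 hours apart, on postnatal days 6 and 7, and the other mice received saline alone at matched volume. The labels file these injections under prenatal treatment although they were given after birth. The study presents this exposure as a model of the fetal alcohol disorders in mice. From postnatal day 21, pups were assigned at random to standard cages or to enriched ones. Enriched cages were large, housed 2 to 6 same-sex siblings, and offered wheels, ladders, toys, more nest material and food to search for. Group names below give the housing and then the injection: standard saline, standard ethanol, enriched saline, enriched ethanol. No transgene or mutation is named for any group. The labels do not give the sex, litter or cage of each mouse, and nothing in them says that mice of a group came from different litters, so the p-values rest on the scatter of these 3 libraries per group.

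Fibrillar collagens form the tensile fibres of connective tissue, and in the brain they are made mainly by fibroblasts of the meninges and around vessels. Collagen IV and the laminins build basement membranes: laminin trimers of an alpha, a beta and a gamma chain polymerise at the cell surface, collagen IV forms a second network, and nidogens and perlecan link them. In the hippocampus such sheets surround vessels and underlie the meninges, the choroid plexus has its own, and some collagens, among them Col25a1 and Col19a1, are made by neurons.

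5 promoter windows are shown, for members picked for the reasons given with them. Each runs from 250 bases before to 50 bases after the transcript start in RefSeq on GRCm38.p6. All are written 5′ to 3′ on the strand of the gene. RefSeq windows were found for 40 of the 55 members. Col4a1 and Col4a2 encode the chains that join in the common collagen IV trimer. They are shown because they start on opposite strands with starts 21 bases apart, and their exons overlap there by 22 bases. The windows lie at chr8:11312777-11313076 on the minus strand and chr8:11312555-11312854 on the plus strand. The 78 bases that both windows hold are in capitals and read as reverse complements of each other.
Col4a1: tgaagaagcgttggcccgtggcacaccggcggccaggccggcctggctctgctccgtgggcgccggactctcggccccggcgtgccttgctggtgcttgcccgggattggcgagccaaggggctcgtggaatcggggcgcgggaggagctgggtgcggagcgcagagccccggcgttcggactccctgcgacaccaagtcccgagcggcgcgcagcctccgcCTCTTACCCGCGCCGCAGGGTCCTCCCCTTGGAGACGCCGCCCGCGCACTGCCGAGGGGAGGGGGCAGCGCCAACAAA
Col4a2: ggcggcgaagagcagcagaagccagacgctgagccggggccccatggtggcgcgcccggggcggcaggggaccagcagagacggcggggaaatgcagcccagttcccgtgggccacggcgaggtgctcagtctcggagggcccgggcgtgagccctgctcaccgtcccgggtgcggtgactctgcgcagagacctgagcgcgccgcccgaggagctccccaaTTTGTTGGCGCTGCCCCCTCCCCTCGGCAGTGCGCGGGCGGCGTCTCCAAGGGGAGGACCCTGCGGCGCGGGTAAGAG
Both windows are rich in G and C, at 74.0% for Col4a1 and 73.7% for Col4a2, against a median of 52.7% over all windows.

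The next 3 windows belong to Col3a1 (chr1:45311288-45311587, plus strand), which had the largest ethanol difference, Col1a2 (chr6:4505368-4505667, plus strand), whose level followed fibroblast markers, and Col25a1 (chr3:130180595-130180894, plus strand), the member of highest level. The motifs TATAAA (the sequence of the TATA box), CCAAT (of the CCAAT box) and GGGCGG (of the GC box) were searched on both strands and their matches are in capitals. Matches were counted at any place in the window, so a match is not by itself a promoter element. On the other strand CCAAT reads ATTGG and GGGCGG reads CCGCCC. No marked matches overlap.
Col3a1: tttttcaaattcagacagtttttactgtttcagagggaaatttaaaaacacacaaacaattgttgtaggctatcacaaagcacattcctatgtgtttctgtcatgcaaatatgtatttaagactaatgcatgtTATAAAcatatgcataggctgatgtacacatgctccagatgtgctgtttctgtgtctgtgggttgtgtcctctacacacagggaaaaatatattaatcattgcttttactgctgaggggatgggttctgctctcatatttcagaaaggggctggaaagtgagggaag
Col1a2: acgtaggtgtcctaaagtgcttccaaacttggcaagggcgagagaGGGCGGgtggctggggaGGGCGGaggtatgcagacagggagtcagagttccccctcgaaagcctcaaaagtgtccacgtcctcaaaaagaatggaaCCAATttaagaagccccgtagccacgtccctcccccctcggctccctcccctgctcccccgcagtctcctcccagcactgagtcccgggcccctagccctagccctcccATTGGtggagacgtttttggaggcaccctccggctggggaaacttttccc
Col25a1: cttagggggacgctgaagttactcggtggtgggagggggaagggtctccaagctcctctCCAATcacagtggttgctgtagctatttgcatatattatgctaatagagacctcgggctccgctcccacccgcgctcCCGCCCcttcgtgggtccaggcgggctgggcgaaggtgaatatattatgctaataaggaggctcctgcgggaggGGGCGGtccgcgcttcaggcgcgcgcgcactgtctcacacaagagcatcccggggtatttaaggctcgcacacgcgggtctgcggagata
The Col3a1 window held 1 TATAAA and 0 matches to the other motifs. It was poor in G and C at 37.7%. The Col1a2 window held 2 CCAAT and 2 GGGCGG matches, and the Col25a1 window held 1 CCAAT and 2 GGGCGG. Of 32817 windows in RefSeq, 13.6% held TATAAA, 37.4% held CCAAT and 35.6% held GGGCGG. Among the 44 windows of members, 5, 14 and 26 did. The Col1a2 and Col25a1 windows belong to transcripts that start inside the genes as GENCODE places them (chr6:4504814-4541544 and chr3:130131501-130599877).

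Levels in this paragraph are per transcript length, so genes can be set side by side. Col25a1, a transmembrane collagen of neurons that is shed into amyloid plaques, had the highest mean, 38.2, and ran only from 32.1 to 47.6 over the 12 libraries. The beta chains Lamb2 and Lamb1 followed with means of 18.4 and 18.2, a gap well inside the spread of Lamb2, from 10.8 to 23.9. Col4a1 came next at 15.7, then Lamc1, the gamma chain shared by most laminins, at 14.0. Lama2, the alpha chain of fibroblast and perivascular basement membranes, had a mean of 11.9, Col4a2 of 11.5 and Col1a2 of 11.4. The order of those 3 members is not resolved by these libraries. Col19a1, a collagen of interneurons, had a mean of 10.6 and a narrow range of 9.53 to 11.9.

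Col9a3, a chain of the fibril-associated collagen IX, averaged 9.78, but 1 library at 29.3 lay far above the rest, which ran from 4.71 to 11.4. Lamb3, a beta chain of epithelial laminin, averaged 9.45 and scattered from 1.94 to 20.5, both ends in standard ethanol mice. Col11a2, a fibrillar chain best known from cartilage, averaged 7.90 within 6.12 to 9.52. Among the other laminin alpha chains, Lama4, the chain made by endothelial cells and pericytes, averaged 3.85, Lama5 2.14, Lama3 1.96 and Lama1 1.45. The collagen IV chains other than Col4a1 and Col4a2 were far lower, at 2.21 for Col4a5, 1.0 for Col4a3, 0.907 for Col4a6 and 0.170 for Col4a4.

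**Figure D1:**
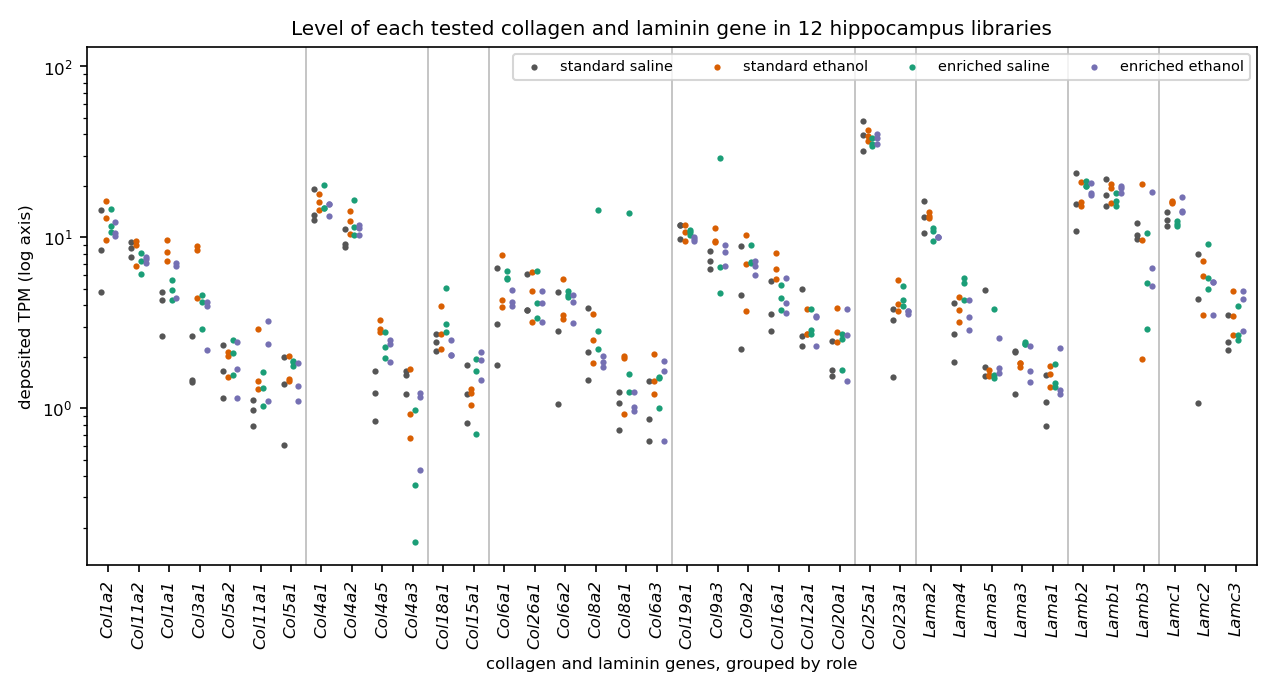
Deposited TPM of each of the 38 tested collagen and laminin genes in the 12 libraries, on a log axis, with genes grouped by role between grey lines and 1 point per library coloured by group. Col25a1 sits highest at a mean of 38.2, Lamb3 spreads from 1.94 to 20.5, and 1 enriched saline point stands apart in Col9a3, Col8a1 and Col8a2.

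Hippocampal neuron genes were high in every library, with the pyramidal cell gene Neurod6 between 104 and 152 and the granule cell gene Prox1 between 18.7 and 41.9. Genes of neighbouring tissue were present as well, among them the cortical gene Cux2, from 15.2 to 65.1. In bulk tissue, fewer cells of a type and less RNA per cell cannot be told apart. Enriched saline 2 stood apart by choroid plexus genes: Ttr, the thyroid hormone carrier of that epithelium, was 7503 there and 20.8 to 385 elsewhere, and the summed level of the 12 choroid plexus markers was 9268 against 183 to 708. Standard saline 2 had low values in several lists. The 38 members had a mean log2 deviation of -0.43 from their 12-library means, the 15 fibroblast markers of -0.86, the 10 markers of cortex and subiculum of -0.62, the 11 oligodendrocyte markers of -0.47 and the 9 oligodendrocyte precursor markers of -0.23. The 11 granule cell markers lay 0.58 above their means there. Over all libraries the summed fibroblast markers ran from 176 in standard saline 2 to 443 in enriched saline 2, led by Mgp, Dcn and Pdgfra. Of these, Pdgfra is also on the list of oligodendrocyte precursor markers. Kcne2 was listed at 0 in 2 libraries, and no other marker of any list was at 0.

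**Figure D2:**
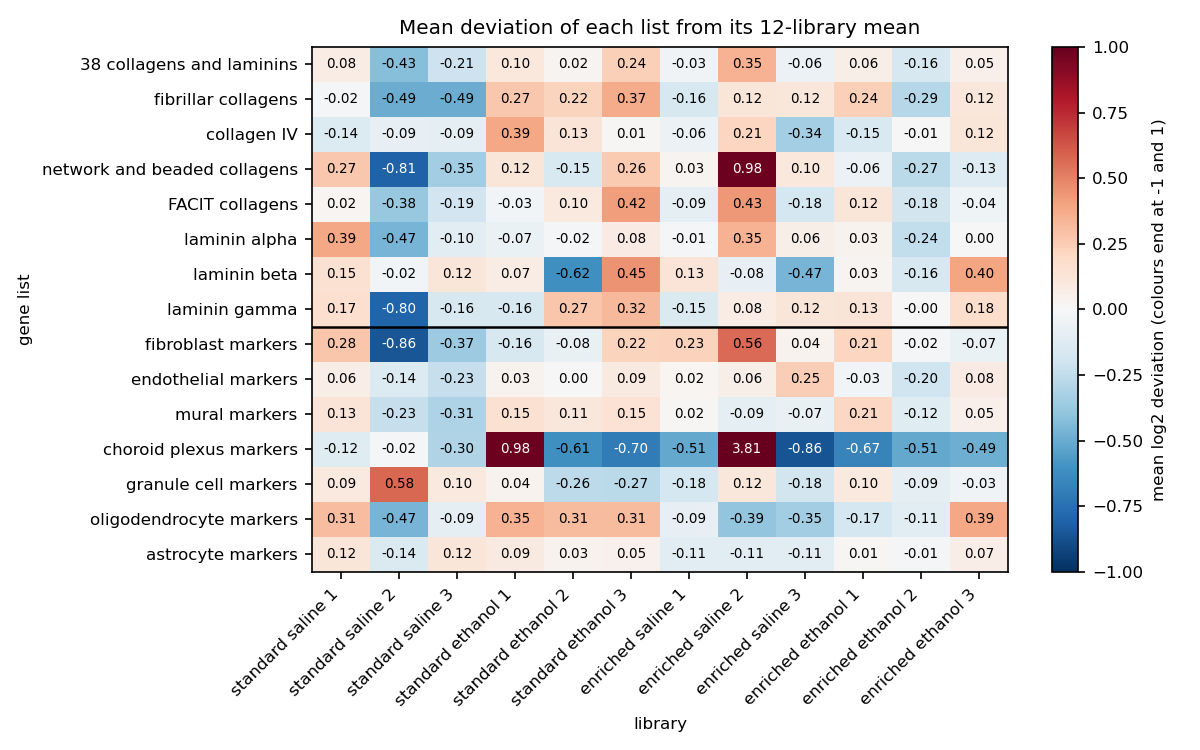
Mean log2 deviation of each gene list from its own mean over the 12 libraries, with libraries as columns, collagen and laminin lists above the black line and cell type markers below it. The 38 members are lowest in standard saline 2 (-0.43) and highest in enriched saline 2 (0.35), the libraries that also have the lowest and the highest fibroblast markers (-0.86 and 0.56).

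No member passed an adjusted p of 0.05 in any of 8 comparisons (limma, Benjamini-Hochberg over 14947 genes). Few genes of the whole table did, between 0 and 2 in each direction of each comparison. All values below are therefore given as levels and estimated differences, with counts at an unadjusted p under 0.05 and counts of members whose groups do not overlap set beside the same share of all genes. Log2 fold changes are on the scale of log2(TPM + 0.5), which understates the change of low genes, each with its standard error (SE).

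The comparison of ethanol with saline in standard cages addresses the adult state after early ethanol when no enrichment followed. No member passed the adjusted threshold here. Of the 38 members, 31 had a log2 fold change above 0, against 50.7% of all genes, and the median was 0.33 against 0.00. Over the members with a mean of at least 5, the median was 0.11. At an unadjusted p under 0.05, 6 members were higher (Col3a1, Col4a5, Col1a1, Lamc1, Col16a1 and Col23a1; 3.75% of all genes) and 0 were lower (3.64%). Adjusted calls were 0 members in each direction (0.00669% of all genes in each).

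Col3a1 (chr1:45311538-45349706), the chain of the pliable fibres found in vessel walls, was 8.87, 4.4 and 8.42 in standard ethanol mice and 2.63, 1.45 and 1.42 in standard saline mice. All 3 ethanol libraries lay above all 3 saline libraries, and the means were 7.23 ± 2.46 and 1.83 ± 0.69 (SD, n = 3 each). The estimate of 1.71 log2 units (SE 0.31, limma adjusted p = 0.244) was the largest among the members. Its exons share 141 bases with the same-strand gene Gm47302, so part of its signal could be divided between them.

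Col1a1 (chr11:94936224-94953042), the main chain of type I collagen, was 8.21, 7.25 and 9.67 in standard ethanol against 4.78, 4.28 and 2.64 in standard saline. These groups did not overlap either. On the log2 scale the difference was 1.04 (SE 0.22) and its adjusted p in limma was 0.271. Col1a2 (chr6:4504814-4541544), its partner in the type I trimer, was 13.0, 9.58 and 16.3 against 14.5, 4.79 and 8.39, with overlapping groups and a log2 fold change of 0.57 (SE 0.30, adjusted p = 0.712).

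Col4a5 (chrX:141475385-141689234), a collagen IV chain encoded on the X chromosome, was 2.91, 2.78 and 3.27 in standard ethanol and 1.64, 0.845 and 1.23 in standard saline. The lowest ethanol value exceeded the highest saline value, a log2 difference of 1.02 (SE 0.22; adjusted p in limma 0.271). The sex of the mice, which bears on X-linked genes, is not given in the labels. Lamc1 (chr1:153218922-153332786) was 15.9, 16.2 and 16.1 against 11.7, 12.7 and 14.1. Its difference was small, 0.32 (SE 0.10, adjusted p = 0.50), but again without overlap.

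The fibril-associated collagen Col16a1 was 5.71, 6.49 and 8.05 against 2.82, 5.57 and 3.55 (log2 fold change 0.73, SE 0.24, limma adjusted p = 0.528). Altogether the groups did not overlap for 7 members that were higher (Col3a1, Col1a1, Col4a5, Lamc1, Col16a1, Col11a1 and Col9a3), and 6.11% of all genes were so separated. For lower members the count was 0 (5.99%). Not every chain of a trimer was higher: Col4a1 was 17.9, 16.0 and 14.4 against 13.5, 19.3 and 12.6, and Lamb1 was 19.5, 20.5 and 15.9 against 15.3, 22.03 and 17.7. The lower members with the smallest p were Lama5 (-0.48, SE 0.38), Col4a3 (-0.35, SE 0.38) and Lamb3 (-0.48, SE 0.69), all with intervals that include 0. Lamb3 was at 0.38 without standard ethanol 2.

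By role, the median log2 fold change in standard cages was 0.57 for 7 fibrillar collagens, 0.48 for 6 network and beaded collagens, 0.45 for 6 fibril-associated collagens, 0.36 for 3 laminin gamma chains, 0.22 for 4 collagen IV chains, 0.30 for 2 transmembrane collagens, 0.09 for 2 multiplexins (Col15a1 and Col18a1), 0.03 for 5 laminin alpha chains and 0.03 for 3 laminin beta chains. Of the fibroblast markers, 13 of 15 were above 0, with a median of 0.32, and their summed level was 287 to 356 in standard ethanol against 176 to 333 in standard saline. Endothelial markers had a median of 0.21, with summed levels of 248 to 260 against 200 to 255. Mural cell markers had a median of 0.20, with summed levels of 171 to 187 against 134 to 174. Oligodendrocyte markers were above 0 in 10 of 11 cases, with a median of 0.51 and summed levels of 5635 to 5943 against 3408 to 5839. All 11 granule cell markers were below 0, with a median of -0.46 and summed levels of 290 to 356 against 347 to 504. The part of these cells in the member differences was not tested. Without standard saline 2 the median of the members was 0.17, 26 of 38 were above 0, and 5 were higher at an unadjusted p under 0.05 (3.35% of all genes), with Col23a1 no longer among them. Then 8 members separated upward (10.6% of all genes), and Lama5, Lama3 and Col19a1 separated downward (3 members, 11.9%).

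**Figure D3:**
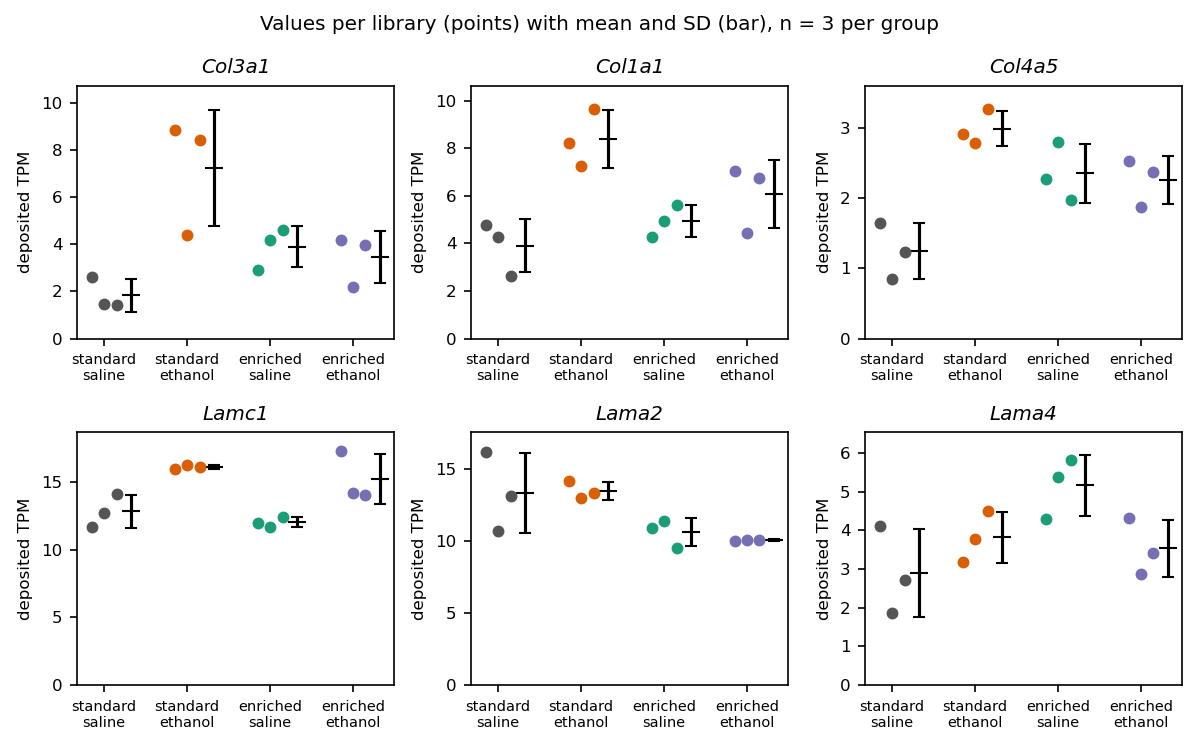
Deposited TPM of 6 collagen and laminin genes in each library (points) with the mean and SD of each group (bars, n = 3). In Col3a1, Col1a1, Col4a5 and Lamc1 all standard ethanol points lie above all standard saline points, and Lama2 is close to 10.1 in all 3 enriched ethanol libraries.

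In enriched cages, the same contrast had 12 of 38 members above 0 (48% of all genes) and 26 below 0 (52%), with a median of -0.12. At an unadjusted p under 0.05, 1 member was higher, Lamc1 (3.85% of all genes), and 1 was lower, Col18a1 (3.91%). Adjusted calls were 0 members (0% of all genes in each direction). Without enriched saline 2, 18 members were above and 20 below 0, Lamc1, Col9a3 and Col4a3 were higher at an unadjusted p under 0.05 (3 members, 3.05% of all genes), and 0 were lower (3.11%).

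Lamc1 was 17.3, 14.2 and 14.0 in enriched ethanol mice and 11.95, 11.7 and 12.4 in enriched saline mice, with no overlap. The difference was 0.32 log2 units (SE 0.10; adjusted p in limma 0.576), as in standard cages. Lamb1, which joins Lamc1 in many laminin trimers, was 20.0, 19.4 and 18.3 against 16.4, 18.2 and 15.2, also without overlap (0.21, SE 0.13). These were the 2 members that separated upward (7.78% of all genes). Without enriched saline 2, 6 separated upward (12.4%) and 6 downward (12.6%). Col3a1 was 4.20, 2.19 and 3.97 against 2.92, 4.18 and 4.61, and the groups overlapped (-0.18, SE 0.31). Col1a1 was 7.05, 4.43 and 6.76 against 4.27, 4.95 and 5.61, also overlapping (0.26, SE 0.22).

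The 6 members that separated downward in enriched cages were Col18a1, Col8a2, Lama3, Col6a1, Col19a1 and Col23a1 (7.45% of all genes). Col18a1 (chr10:77052178-77166548), the basement membrane collagen that holds endostatin, was 2.05, 2.51 and 2.04 in enriched ethanol against 2.80, 5.07 and 3.12 in enriched saline (log2 fold change -0.59, SE 0.24, limma adjusted p = 0.616). Its high value came from enriched saline 2, and without that library the difference was -0.36. Col8a1, a short-chain network collagen, was 1.01, 1.25 and 0.967 against 1.24, 13.8 and 1.59. Its log2 fold change was -1.25 with all libraries and -0.28 without enriched saline 2. For its partner Col8a2, 1.74, 1.86 and 2.01 against 2.23, 14.4 and 2.84, the values were -1.12 and -0.35. In the same comparison the 12 choroid plexus markers had a median of -1.19 and all 12 were below 0. Fibroblast markers were below 0 in 13 of 15 cases (median -0.26) and endothelial markers in 9 of 12 (median -0.17). Of the oligodendrocyte markers, 10 of 11 were above 0 (median 0.32). The part of these cells in the member values was not tested.

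**Figure D4:**
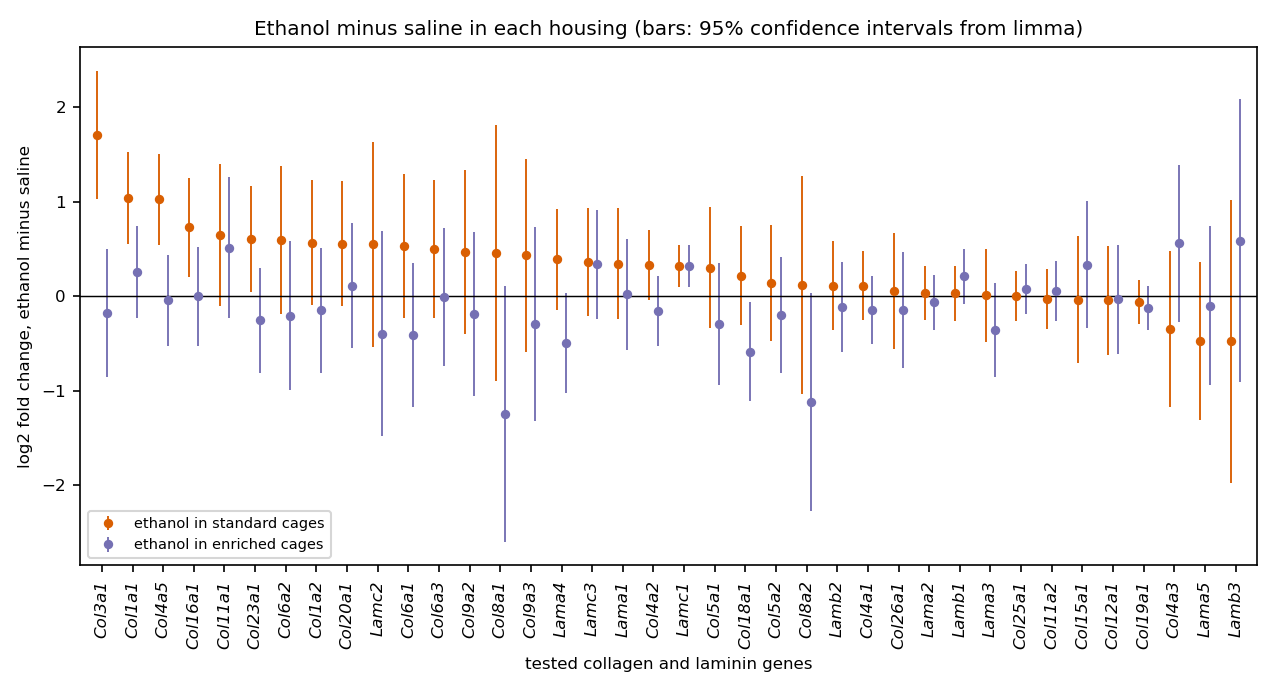
Log2 fold change of ethanol minus saline for each tested member in standard cages (orange) and enriched cages (purple), ordered by the value in standard cages, with 95% confidence intervals from limma. In standard cages 31 of 38 points are above 0, in enriched cages 12 are, and Lamc1 is at 0.32 in both.

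The plot of collagens beside Ttr shows 5 of the 11 members that were highest in the library with choroid plexus genes. Enriched saline 2 held the highest value of Col8a1 (13.8), Col8a2 (14.4), Col9a3 (29.3), Col18a1 (5.07) and Col17a1 (3.31, a transmembrane collagen of epithelial attachment that reached at most 0.467 elsewhere). In standard ethanol 1, with the next highest Ttr at 385, the same chains were 2.02, 3.56, 11.4, 3.97 and 0.236. Leaving out enriched saline 2 turned the sign of Col9a3, whose exons share 234 bases with the opposite-strand gene Tcfl5: ethanol minus saline in enriched cages went from -0.30 to 0.46. These 5 collagens were chosen for the plot after their values were seen. The other members with their highest value in that library were Col4a2 (16.5), Col26a1 (6.35), Col5a2 (2.49), Col22a1 (1.07), Col14a1 (0.733) and Col4a4 (0.504).

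**Figure D5:**
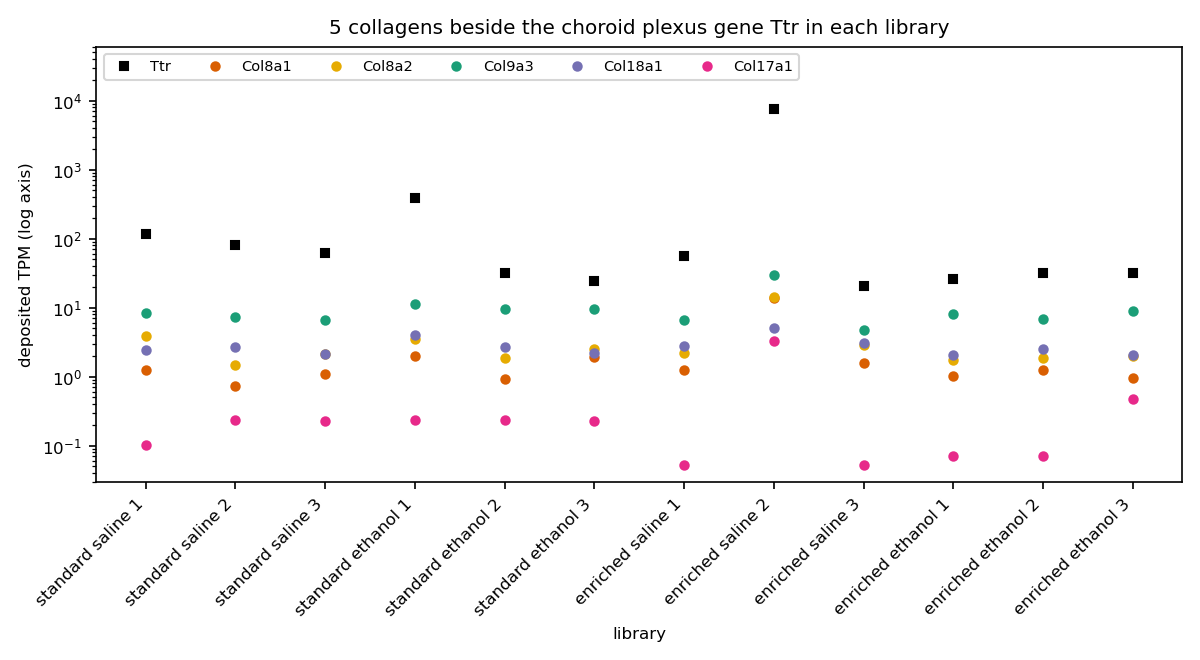
Deposited TPM of the choroid plexus gene Ttr (black squares) and of 5 collagens (coloured points) in each of the 12 libraries, on a log axis. All 6 genes are highest in enriched saline 2, where Ttr is 7503 and Col8a1 13.8.

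Whether the ethanol difference itself changed with housing was tested as an interaction (enriched minus standard). The median over members was -0.40, with 30 of 38 below 0 (51.6% of all genes). At an unadjusted p under 0.05, 6 members had a negative interaction (Col3a1, Col4a5, Lama4, Col1a1, Col23a1 and Col18a1; 3.99% of all genes) and 0 a positive one (3.42%). None passed the adjusted threshold (0.00669% of all genes in each direction). Col3a1 had the largest estimate, -1.89 (SE 0.44, limma adjusted p = 0.509), then Col4a5 with -1.07 (SE 0.31, adjusted p = 0.564). Lama4 stood at -0.88 (SE 0.34), Col23a1 at -0.86 (SE 0.36), Col18a1 at -0.81 (SE 0.34) and Col1a1 at -0.78 (SE 0.31). Lamc1 had an interaction of -0.0021 (SE 0.14), with a 95% confidence interval from -0.31 to 0.31. Positive estimates with the smallest p were Col4a3 (0.91, SE 0.54), Lamb3 (1.07, SE 0.97) and Lamb1 (0.18, SE 0.19). All 15 fibroblast markers and all 12 choroid plexus markers were below 0 as well, with medians of -0.60 and -1.35. Endothelial markers were below 0 in 11 of 12 cases (median -0.30), while 10 of 11 granule cell markers were above 0 (median 0.53). The part of these cells in the interaction values was not tested. Without standard saline 2, 12 of 38 members were above 0. With standard saline 2 and enriched saline 2 both left out, the median over members was -0.18.

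Enriched against standard cages in saline mice addresses enrichment without ethanol. Here 28 of 38 members were above 0 (50.9% of all genes) and 10 below 0 (49.1%), with a median of 0.32, and of 0.14 over the members with a mean of at least 5. Members higher at an unadjusted p under 0.05 were Col4a5, Lama4, Col3a1 and Col23a1 (4 members, 5.43% of all genes), and Col4a3 and Lama2 were lower (2 members, 4.6%). Adjusted calls were 0 members (0.0134% of all genes in each direction).

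Col4a5 was 2.27, 2.80 and 1.98 in enriched saline mice against 1.64, 0.845 and 1.23 in their standard controls (0.73 log2 units, SE 0.22, limma adjusted p = 0.344). The groups did not overlap. Lama4 (chr10:38965515-39110188) was 4.28, 5.38 and 5.81 against 4.11, 1.86 and 2.71, separated by a narrow margin (0.78, SE 0.24, adjusted p = 0.365). Col3a1 was 2.92, 4.18 and 4.61 against 2.63, 1.45 and 1.42, again separated (0.93, SE 0.31, adjusted p = 0.394). Col23a1, a transmembrane collagen, was 4.31, 5.17 and 3.97 against 3.29, 1.53 and 3.81 (0.63, SE 0.26).

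In the other direction, Col4a3 (chr1:82586921-82722059), a chain of the collagen IV trimer of kidney and lung, was 0.357, 0.973 and 0.165 in enriched saline against 1.21, 1.64 and 1.56 (difference of -1.06, SE 0.38, limma adjusted p = 0.418). It is the lowest tested member, and its exons share 289 bases with the opposite-strand gene C430014B12Rik. It was also the 1 member that separated downward (6.57% of all genes), beside 6 that separated upward, which were Col4a5, Lama4, Col3a1, Col23a1, Col18a1 and Lama3 (7.4%). Col8a1 had the largest estimate, 1.31 (SE 0.62), which was 0.34 without enriched saline 2. All 15 fibroblast markers were above 0 here, with a median of 0.59, and all 12 choroid plexus markers, with a median of 1.0. Endothelial markers were above 0 in 10 of 12 cases (median 0.25). All 11 granule cell markers (median -0.32) and all 11 oligodendrocyte markers (median -0.18) were below 0. The part of these cells was not tested. Without standard saline 2 the median over members was 0.15, with 29 of 38 above 0. Then 8 members separated upward (12.8% of all genes), and Lama2, Col19a1 and Col4a3 separated downward (3 members, 12.2%). Without enriched saline 2 as well, Col4a1 was the 1 member higher at an unadjusted p under 0.05 (3.65%), and Lama2 and Col4a3 were lower (2 members, 4.36%). The standard saline libraries serve both this comparison and that of ethanol in standard cages. Col3a1, Col4a5 and Col23a1, higher in both at an unadjusted p under 0.05, were therefore set against the same 3 libraries.

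In ethanol mice, enriched against standard cages showed mostly lower values, with 30 of 38 members below 0 (51.9% of all genes) and a median of -0.14. Col3a1, Lama2 and Col16a1 were lower at an unadjusted p under 0.05 (3 members, 2.66% of all genes), and 0 were higher (2.91%). Adjusted calls were again 0 members (0% of all genes higher, 0.00669% lower). Col3a1 was 4.20, 2.19 and 3.97 in enriched ethanol and 8.87, 4.4 and 8.42 in standard ethanol, so the highest enriched library stayed just under the lowest standard one (log2 fold change -0.95, SE 0.31, limma adjusted p = 0.861).

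Lama2 (chr10:26980036-27619758), the laminin chain whose loss causes a congenital muscular dystrophy, was 10.03, 10.1 and 10.1 in enriched ethanol mice against 14.1, 13.0 and 13.3 in standard ethanol mice. The groups did not overlap, and the estimate was -0.40 (SE 0.13) with an adjusted p of 0.861 in limma. In all, 5 members separated downward (Col3a1, Lama2, Col1a1, Col4a5 and Col9a3; 5.97% of all genes), and Col15a1, a collagen of vessel basement membranes, separated upward (6.07%), at 1.92, 2.14 and 1.47 against 1.30, 1.04 and 1.22. Of the fibroblast markers, 8 were above and 7 below 0, with a median of 0.00. Oligodendrocyte markers were below 0 in 10 of 11 cases (median -0.33) and choroid plexus markers in 11 of 12 (median -0.47), and their part in the member values was not tested.

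Mice with both ethanol and enrichment were also set against mice with neither. The median over members was 0.19, with 25 above 0 (49.3% of all genes). At an unadjusted p under 0.05, 5 members were higher (Col4a5, Col1a1, Col3a1, Col11a1 and Lamc1; 3.24% of all genes) and Lama2 was lower (3.27%). Adjusted calls were 0 members (0% of all genes higher, 0.0134% lower). Col4a5, at 2.52, 1.87 and 2.37 against 1.64, 0.845 and 1.23, was the 1 member that separated upward (5.07%; log2 fold change 0.68, SE 0.22, limma adjusted p = 0.624). Lama2 and Col11a2 separated downward (5.59%), with estimates of -0.37 (SE 0.13) and -0.20 (SE 0.15). Fibroblast markers were above 0 in 14 of 15 cases (median 0.33) and granule cell markers below 0 in 10 of 11 (median -0.23), and their part was not tested. Without standard saline 2 the median was 0.05, and Col4a5 and Col1a1 were the 2 members still higher at an unadjusted p under 0.05 (3.45% of all genes), while Lama2 and Col19a1 were lower (3.99%). Then 4 members separated upward (10.4%) and 4 downward (12.3%).

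Averaged over housing, Lamc1 was 15.6 ± 1.27 in ethanol and 12.4 ± 0.918 in saline mice (SD, n = 6 each), with ethanol libraries from 14.0 to 17.3 and saline libraries from 11.7 to 14.1. The ranges met at a single pair of libraries, and the log2 fold change of 0.32 (SE 0.07) had an adjusted p of 0.329 in limma. It stayed between 0.27 and 0.35 when any 1 library was left out. Col1a1 averaged 0.65 (SE 0.16, adjusted p = 0.376), Col3a1 0.77 (SE 0.22), Col11a1 0.58 (SE 0.24) and Col4a5 0.49 (SE 0.16). These were the 5 members higher at an unadjusted p under 0.05 (3.97% of all genes), and 0 were lower (4.05%). Of these 5, Lamc1, Col1a1 and Col11a1 had estimates above 0 in both housings, while Col3a1 and Col4a5 did so only in standard cages. In enriched cages Col3a1 and Col4a5 had means of 3.45 and 2.25 in ethanol mice against 3.90 and 2.35 in saline mice. Adjusted calls were 0 members (0.00669% of all genes in each direction). With 25 of 38 above 0 (49.2%), the median over members was 0.07. Without enriched saline 2, 31 were above 0 (50.1%), without standard saline 2, 22 were (48.6%), and without both, 24 were (49.3%). All 11 oligodendrocyte markers were above 0 (median 0.38) and all 12 choroid plexus markers below 0 (median -0.58), and their part was not tested. No member separated the 6 ethanol from the 6 saline libraries, as 0.154% of all genes did upward and 0.261% downward.

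Averaged over ethanol, Lama2 was 10.3 ± 0.680 in enriched and 13.4 ± 1.80 in standard cages (SD, n = 6 each). Enriched libraries ran from 9.51 to 11.4 and standard libraries from 10.7 to 16.2, so the groups overlapped only through standard saline 2, at 10.7. The estimate was -0.35 log2 units (SE 0.09), with an adjusted p of 0.415 in limma. Without standard saline 2 it was -0.42 with an adjusted p of 0.164, and Lama2 was then the 1 member whose groups did not overlap (0.442% of all genes). The exons of Lama2 share 538 bases with the opposite-strand gene Gm48084. The kit keeps strand, but whether strand was used in counting is not given in the sources used here. Col4a3 was the other member lower at an unadjusted p under 0.05 (2 members, 3.82% of all genes; -0.60, SE 0.27), and 0 were higher (4.14%). Adjusted calls were 0 members (0.00669% of all genes higher, 0.0134% lower). The split of signs was 25 above and 13 below 0 (50% of all genes each way). Without enriched saline 2, 20 members were below 0 (50.7% of all genes). With standard saline 2 left out as well, 14 were above and 24 below 0 (51.8% of all genes below). The median over members was 0.07, and -0.039 over those with a mean of at least 5. All 11 oligodendrocyte markers were below 0 (median -0.25), 13 of 15 fibroblast markers were above 0 (median 0.33) and 11 of 12 choroid plexus markers were (median 0.21), and their part was not tested.

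Chains of 1 trimer and chains beside markers of cells known to make them were compared over the 12 libraries, as 10 correlations on the log2 scale with permutation p-values from 100000 resamples, adjusted over the 10. Col1a1 and Col3a1 varied together, with a Pearson r of 0.896 (permutation p = 5.0e-05, adjusted 5.0e-04) and a Spearman rho of 0.895 (adjusted p = 0.00250 by permutation). The r was 0.830 without the 2 libraries farthest from the Col1a1 median and 0.782 on deviations from the group means. Col1a2 followed the mean of the 15 fibroblast markers, with r = 0.899 (permutation adjusted p = 0.00105), rho = 0.790 (adjusted p = 0.0173), 0.741 without the 2 farthest libraries and 0.938 within groups.

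Col4a1 and Col4a2, whose shared start region is printed above, did not follow each other. Col4a1 ran from 12.6 to 20.1 and Col4a2 from 8.80 to 16.5, with r = 0.088 (permutation p = 0.789), rho = 0.224 and r = 0.464 without the 2 farthest libraries. Their exons share 22 bases. Col9a3 and the mean of the choroid plexus markers had r = 0.899 (permutation adjusted p = 0.0115), but rho was 0.413 and r was 0.156 without enriched saline 2 and standard ethanol 1, so the relation rests on those libraries. The other pairs did not pass 0.05 by permutation: Col1a1 with Col1a2 (r = 0.472), Lamb1 with Lamc1 (0.425), Lama4 with Lama5 (0.297), Lamb2 with Lamc1 (-0.156), Col4a1 with endothelial markers (0.014) and Col25a1 with interneuron markers (-0.559).

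The enzymes that make collagen were measured beside the chains. Of 32 biosynthesis genes listed, 31 were in the table and 26 were tested, and 0 passed the adjusted threshold in any comparison. In standard cages 14 were above and 12 below 0 for ethanol, with a median of 0.02. Crtap, a partner of the prolyl 3-hydroxylase, had the smallest p, at 7.27, 4.06 and 4.93 in standard ethanol against 4.0, 2.98 and 2.33 in standard saline (log2 fold change 0.71, SE 0.21, limma adjusted p = 0.484). It was also higher in enriched than in standard saline mice (0.80, SE 0.21, adjusted p = 0.286). Next came Bmp1, a protease that trims procollagen, at 0.26 (SE 0.10). In enriched cages the smallest p for ethanol belonged to P4ha1, a prolyl 4-hydroxylase subunit (0.54, SE 0.16), and Plod1, a lysyl hydroxylase (0.27, SE 0.12).

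Receptors for collagen and laminin numbered 18, of which 16 were tested and 0 passed. For ethanol in standard cages their median was 0.07, led by the laminin-binding integrins Itga7 (-0.37, SE 0.16) and Itga6 (0.18, SE 0.08). Bcam, a receptor for laminin alpha 5 chains, was 7.84, 7.57 and 6.58 in enriched ethanol mice against 8.47, 13.1 and 11.4 in enriched saline mice, without overlap (-0.53, SE 0.15, limma adjusted p = 0.576). The syndecan Sdc4 went the other way there (0.31, SE 0.10).

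All 20 binding partners of the 2 families were tested, and 0 passed. For ethanol in standard cages 16 were above 0, with a median of 0.21. Sparc, a chaperone-like collagen binder, was 181, 202 and 221 in standard ethanol against 162, 157 and 173, and 193, 196 and 202 in enriched ethanol against 152, 171 and 144. It separated in both housings, and averaged over housing the difference was 0.31 (SE 0.06; adjusted p in limma 0.244). The basement membrane linker Nid1 averaged 0.44 (SE 0.15). Dcn, a proteoglycan that coats collagen fibrils and is also on the fibroblast list, was 81.2, 71.9 and 88.0 in standard ethanol against 40.3, 44.97 and 46.9 in standard saline, a difference of 0.86 (SE 0.20, adjusted p = 0.271). In enriched cages the Dcn groups overlapped, at 52.2, 46.4 and 70.6 against 58.4, 94.9 and 50.8, and its interaction was -1.10 (SE 0.29, adjusted p = 0.511).

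Among 16 genes of matrix turnover, all tested, 0 passed as well, with a median of 0.08 for ethanol in standard cages. Plat, the tissue plasminogen activator, was 38.4, 37.4 and 39.9 in standard ethanol against 29.7, 29.2 and 29.7 in standard saline, tight in both groups (0.38, SE 0.06, limma adjusted p = 0.195). Averaged over housing it was 0.28 (SE 0.04, adjusted p = 0.101), the smallest adjusted p for ethanol in the 4 lists. Timp2, an inhibitor of matrix metalloproteases, was 132, 121 and 121 against 77.4, 79.4 and 112 in standard cages (0.49, SE 0.12). In enriched cages Timp2 was lower in the ethanol mice, at 97.2, 104 and 104 in enriched ethanol against 110, 122 and 127 in enriched saline. That difference did not reach an unadjusted p under 0.05 in limma. The interaction of Timp2 was -0.72 (SE 0.17, adjusted p = 0.509 in limma). Plat had a negative interaction too, at an unadjusted p under 0.05, but in enriched cages it was still higher in the ethanol mice at that limit. At that limit Plat and Timp2 were also higher in enriched than in standard saline mice. That comparison rests on the same standard saline libraries as the one for ethanol in standard cages.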

How the data were processed

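RNA-seq values of 12 mouse hippocampus libraries were analysed. Per the labels' protocols, stranded libraries were made from total RNA after removal of ribosomal RNA. The submitters' processing notes name CASAVA, kallisto, sleuth and mm10, without versions, and the annotation used is not given in the sources used here. In all, the authors deposited 1 table named as TPM, yet column totals ran from 973187 to 1024536, so it was treated as a signal proportional to TPM, with limma as the design had set. Read depth is unknown, so counting error cannot be stated. No libraries held identical values.

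Symbols and positions are from GENCODE M21 on GRCm38, and 35879 of 36119 identifiers had a symbol. Genes averaging at least 1 were kept and taken as log2(value + 0.5). limma 3.58.1 in R 4.3.3 fitted 4 group means with a mean-variance trend (8 residual and 3.82 prior degrees of freedom), and 8 contrasts were tested two-sided, with Benjamini-Hochberg adjustment over 14947 genes. On simulated data for ethanol in standard cages over 14947 genes, 84% of genes changed by 2-fold and 93% of those changed by 4-fold were called. Of the calls, 4.84% were unchanged genes, and 0 genes were called when nothing was changed. These shares depend on the spread and the number of changed genes set in the simulation, so they do not measure the power for the members.

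Alternatives were other pseudocounts (0.1 and 1), filters (none, and a mean of at least 5), scalings, variance models, a replicate block, fits to the 2 groups compared, and leaving out libraries. Counts of members without standard saline 2, enriched saline 2 or both were added after seeing the data. The members and gene lists were chosen with earlier results of these data known. Values are given for the 12 members of highest mean. Further values were drawn from the 3 members of smallest p in each direction of each comparison and from chains listed by role. They were also drawn from the 2 genes of smallest p in each pathway list. Not all of these members and genes are printed.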

Additional observations from a re-analysis of the deposited data

How the results depend on the processing

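In 181 refits over the 8 comparisons, of which the fit to the 2 groups alone was run for the 5 comparisons of 2 groups, the number of members called stayed at 0, and the smallest adjusted p of any member was 0.147 (Lama4, enrichment in saline mice, without standard saline 1). The median member change for ethanol in standard cages was 0.11 with a mean of at least 5 and ran from 0.17 (without standard saline 2) to 0.46 (without standard saline 1). With standard saline 2 and enriched saline 2 both left out it was 0.17. For enrichment in saline mice it was 0.14 with a mean of at least 5, ran from 0.15 to 0.42 with 1 library left out, and was 0.11 without both libraries. For both against neither it ran from 0.054 (without standard saline 2) to 0.26 and was 0.054 without both. The interaction median was -0.18 without both. For enrichment averaged over ethanol it was -0.039 with a mean of at least 5, and ran from -0.018 to 0.16 with 1 library left out. The cause of these shifts was not tested, beyond the fewer members that the higher limit leaves. Lamb3 in standard cages ran from -1.17 to 0.38 with 1 library left out and turned to 0.38 without standard ethanol 2, where it is lowest.

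Correlations moved for Col1a1 with Col3a1 (0.830 without the 2 farthest libraries, 0.782 within groups), Col4a1 with Col4a2 (0.464), Lama4 with Lama5 (0.609 within groups), fibroblast markers with Col1a2 (0.741), endothelial markers with Col4a1 (-0.423), choroid plexus markers with Col9a3 (0.156) and interneuron markers with Col25a1 (-0.166).

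No pairing of the samples by replicate number was seen. Of 18 same-numbered pairs, 0 had a correlation of deviations over 0.1 (range -0.151 to 0.0576), and 2 of 12 libraries correlated best with their own number. A weak shared factor could be hidden by the scatter between libraries. With the replicate block the number of members called was 0 and the median for ethanol in standard cages 0.33. Precision is limited by 3 libraries per group and an unknown depth.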
